A study of Mus musculus with 24 samples.

Results

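The daily difference in liver gene expression was measured in mice that carry human PER1 with its normal serine (hPER1 S714, called control). These mice served as the control of a second line whose human PER1 carries the change S714G. Livers of control mice collected at ZT13 were set against livers collected at ZT1, where ZT counts hours from lights on, so that the samples date from early night and early day. The comparison rests on 6 of the 24 arrays of the series, 3 at each time, chosen by their labelled tissue, genotype and time. All mice were male, 2 months old and of C57BL/6 background, and had spent 10 days on light-dark cycles. Tissue was frozen in liquid nitrogen, total RNA was extracted with Trizol and labelled with Cy3, and each sample was hybridised to an Agilent mouse array with 62976 spots. The other groups used below, hPER1 S714G liver and hPER1 S714 white adipose tissue, each also had 3 arrays at ZT1 and 3 at ZT13. The series calls the 3 repeats of a group independent. It does not give the promoter that drives the human gene or say whether an array holds RNA of 1 animal, so the p-values below measure the spread between these samples.

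The circadian clock of liver cells is a feedback loop. BMAL1 (gene Arntl) pairs with CLOCK or NPAS2 and switches on genes with E-box sequences, among them the Per and Cry genes, whose proteins return to the nucleus and silence the pair. A second loop runs through the nuclear receptors REV-ERB (Nr1d1, Nr1d2) and ROR (Rora), which repress and activate Arntl. The D-box factors DBP, TEF and HLF pass the rhythm on to liver metabolism, against the repressor NFIL3. Liver also answers to feeding, glucocorticoid hormone and body temperature, all of which follow the time of day in nocturnal mice, and the samples do not separate these inputs.

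The 3 ZT1 arrays all lay on slide 1, while at ZT13 replicate 1 lay on slide 2 and replicates 2 and 3 on slide 3. No slide held both times of control liver, so within these 6 arrays time and slide cannot be told apart. The 75th percentile of the processed signal ran from 376 to 673 at ZT1 and from 764 to 983 at ZT13, and 45.5% to 57.5% of spots were well above background. All values below are log2 signals relative to the 75th percentile of their own array. A fit of all 24 arrays with slide as a fixed term (here the slide fit) takes slide differences from other groups. It learns the step from slide 1 to slide 2 from adipose S714G ZT1 (replicates 1 and 2 against replicate 3), and the step from slide 2 to slide 3 from control liver ZT13 itself. As no other group spans slides 2 and 3, ZT13 replicates 2 and 3 serve only to set that second step. Each slide fit difference of control liver thus sets ZT13 replicate 1 alone against the 3 ZT1 arrays, less the step in adipose S714G ZT1. The step from slide 1 to slide 2 is uneven for hepatocyte genes. The mean of 12 hepatocyte markers in adipose S714G ZT1 was 2.08 and -3.07 in replicates 1 and 2 and 1.08 in replicate 3, so values of liver-abundant genes in the slide fit move with a single array. The median difference of the 12 hepatocyte markers in control liver was -0.20 in the 12 liver arrays and -2.15 in the slide fit. The labelled tissue fits its markers: all 12 measured hepatocyte markers were above background, their summed level was 11.09 to 11.19 at ZT1 and 10.62 to 11.22 at ZT13, and Alb lay between 7.45 and 8.74 on the 6 arrays.

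Of 21861 genes tested in the 12 liver arrays, 11190 differed between ZT13 and ZT1 in control liver (51.2%; limma, adjusted p under 0.05), 4655 of them higher at ZT13 (21.3%) and 6535 lower (29.9%). An absolute log2 difference of at least 1 as well was reached by 5942 genes, 2355 higher and 3587 lower. The 3 values of ZT13 all lay above those of ZT1 for 5038 genes (23%) and all below for 7003 (32%). The median difference of all genes was -0.15. These counts set the background for every gene group below: about 1 gene in 2 passed, and a group in which a like share passed does not stand out. In the slide fit 148 of 24255 genes passed (0.61%), 85 higher (0.35%) and 63 lower (0.26%), with a median SE of 0.547 against 0.302 without the slide term. Of the 148, 100 had also passed in the 12 arrays in the same direction, 59 higher and 41 lower at ZT13.

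The direction of the called genes moved with the brightness of their probes and with the scaling. With genes ranked by mean signal and cut into 5 equal bins, 11.3% of the dimmest bin were called higher and 40.5% lower, with a median of -0.60. In bin 4, the next to brightest, 31.2% were called higher and 19.4% lower, with a median of 0.13. In the slide fit the medians of the 5 bins lay between 0.07 and 0.22. Scaling by each array's median instead of its 75th percentile raised the median of all genes by 0.64, to 0.49, and 10245 of 12361 called genes were then higher (82.9%) against 41.6% in the main setting. Median scaling therefore turns genes that lie below 0 by less than about 0.64, and moves those above 0 further up. Genes in that range below 0 have no settled direction.

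**Figure D1:**
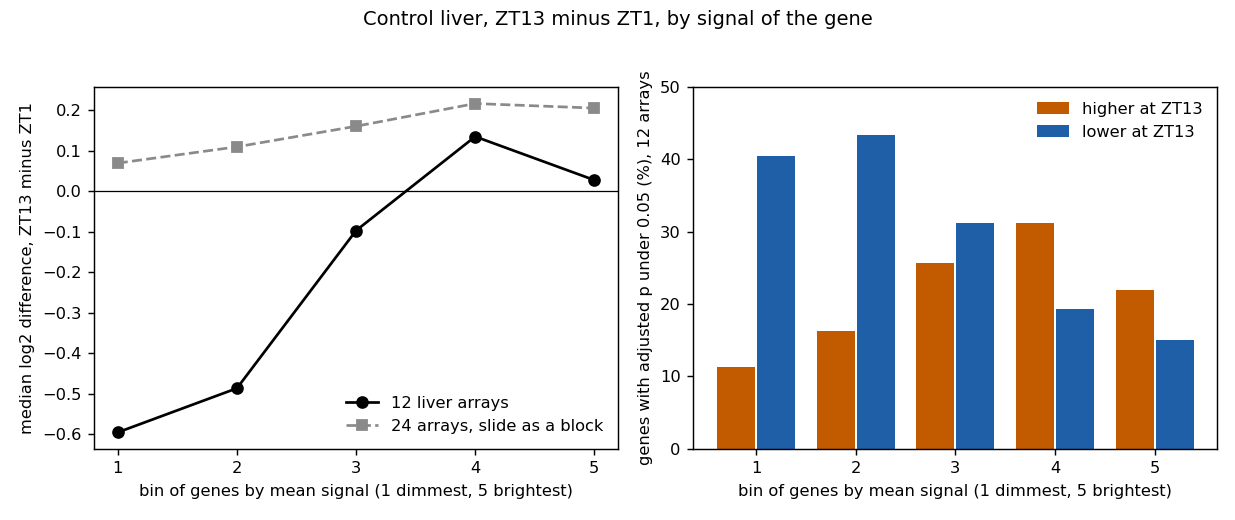
Control liver, ZT13 minus ZT1, by bin of genes ranked by mean signal (5 equal bins, 1 dimmest, 5 brightest). The left panel gives the median log2 difference in the 12-array fit (circles) and in the slide fit (squares), and the right panel the percent of genes with adjusted p under 0.05 that were higher or lower at ZT13. The lower calls outnumber the higher ones in the 3 dimmest bins (40.5% against 11.3% in the dimmest), and under median scaling higher calls make up 82.9% of all calls.

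The clock genes differed strongly between the times. Per1, Per2 and Dbp were 42.4-fold, 15.7-fold and 10.1-fold higher at ZT13, and Arntl was 9.61-fold lower. Of 8 genes listed for a daytime peak in mouse liver (Dbp, Tef, Hlf, Nr1d1, Nr1d2, Usp2, Per3 and Ciart), 7 were higher and none lower, with a median of 2.83 (1.92 with Per3 and Ciart at the bounds given below). Of 5 late-night genes (Nfil3, Cry1, Arntl, Npas2 and Clock), none was higher and 4 were lower, with a median of -2.19. Among all 23 core clock genes 10 were higher and 7 lower, with a median of 0.36. Under median scaling the same lists gave 8 higher and none lower, and none higher and 4 lower. In the slide fit 3 daytime genes were higher and 3 late-night genes lower.

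Promoter sequences are shown for genes of the loop and outputs that carry the letters of an E-box (CACGTG) or D-box (TTATGTAA or its complement) in the 250 bases before the start site. They are from RefSeq, build GRCm38.p6, written 5′ to 3′ on the gene's strand, with the matched letters in capitals. Per1, at chr11:69098699-69098948 on the plus strand, has an E-box that begins 166 bases before the start. Ciart, at chr3:95882229-95882478 on the minus strand, has E-boxes at 116, 58 and 44 bases before the start. Per3, at chr4:151044666-151044915 on the minus strand, has D-boxes at 205 and 158 bases. Coq10b, at chr1:55052520-55052769 on the plus strand, has an E-box at 78 bases and a D-box on the other strand at 162. Cry1, at chr10:85185055-85185304 on the minus strand, has an E-box at 60 bases and is shown because it did not pass the test between the times.
Per1: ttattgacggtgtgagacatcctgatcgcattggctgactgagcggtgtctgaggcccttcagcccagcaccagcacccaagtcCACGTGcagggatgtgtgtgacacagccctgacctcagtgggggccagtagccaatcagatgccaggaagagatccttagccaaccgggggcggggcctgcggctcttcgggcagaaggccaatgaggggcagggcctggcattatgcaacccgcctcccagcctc
Ciart: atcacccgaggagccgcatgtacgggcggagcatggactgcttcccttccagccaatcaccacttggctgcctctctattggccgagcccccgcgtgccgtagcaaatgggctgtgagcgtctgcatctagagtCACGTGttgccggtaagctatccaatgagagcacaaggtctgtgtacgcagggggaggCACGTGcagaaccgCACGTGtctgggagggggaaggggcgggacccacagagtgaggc
Per3: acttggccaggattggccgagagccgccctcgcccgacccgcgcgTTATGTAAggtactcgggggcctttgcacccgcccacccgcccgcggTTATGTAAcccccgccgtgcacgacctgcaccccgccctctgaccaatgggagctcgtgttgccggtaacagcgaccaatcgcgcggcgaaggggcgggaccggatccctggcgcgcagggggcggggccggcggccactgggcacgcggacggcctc
Coq10b: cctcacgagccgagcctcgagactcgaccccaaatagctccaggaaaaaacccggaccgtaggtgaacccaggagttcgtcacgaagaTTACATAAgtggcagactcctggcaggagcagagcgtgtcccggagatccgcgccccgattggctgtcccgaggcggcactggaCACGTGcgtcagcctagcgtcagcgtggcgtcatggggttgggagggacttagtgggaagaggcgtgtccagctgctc
Cry1: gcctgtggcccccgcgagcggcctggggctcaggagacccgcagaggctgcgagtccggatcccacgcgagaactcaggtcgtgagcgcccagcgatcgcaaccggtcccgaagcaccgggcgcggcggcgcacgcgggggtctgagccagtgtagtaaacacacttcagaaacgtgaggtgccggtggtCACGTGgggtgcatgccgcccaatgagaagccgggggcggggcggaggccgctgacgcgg

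Over all 32851 windows of this length in the RefSeq table, both strands searched, 6.02% held the E-box and 0.819% the D-box, and of the 27025 genes they belong to 6.86% and 0.977% had such a window. Of the 18 core clock genes with a window, 5 held an E-box (Per1, Tef, Ciart, Cry1 and Bhlhe41) and 1 a D-box (Per3), while none held the ROR response element, present in windows of 0.396% of all genes. Of the 13 higher genes named below by size or p that have a window, 3 held an E-box (Per1, Coq10b and Pfkfb3), and of 13 such lower genes 1 did (Npl). Per1 has a window at another start site with no E-box. Tef has E-boxes at 127 and 138 bases in the windows of 2 start sites. Matches describe these letters in these windows and say nothing of whether a factor was bound.

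Per1, Per2 and Per3 encode the repressors of the loop. Per1 read -3.26, -3.33 and -3.41 in the 3 ZT1 livers and 1.85, 2.24 and 2.13 in the 3 ZT13 livers (probe chr11:68923364-68923423, build mm9). Its log2 difference was 5.40 (SE 0.26, limma adjusted p = 6.45e-07) and 5.22 in the slide fit (adjusted p = 0.000392). All ZT13 livers lay more than 5 units above all ZT1 livers, and the probes are for the mouse gene, with no statement in the labels on whether human PER1 RNA binds them. A dimmer probe, for transcript AK081813, went the other way, at -1.50. Per2 read -2.50, -2.49 and -2.68 at ZT1 and 1.13, 1.76 and 1.37 at ZT13, a difference of 3.97 (SE 0.21, limma adjusted p = 1.11e-06), which was 2.86 in the slide fit (adjusted p = 0.014). The Per2 groups were separate by more than 3 units, and both genes were well above background on 2 of the 3 ZT1 arrays. Per3 was not above background at ZT1 (-6.08, -6.35 and -5.09) and read -2.08, -2.95 and -1.90 at ZT13, which makes it at least 2.66-fold higher. It did not pass in the slide fit (adjusted p = 0.329).

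The other repressors of BMAL1 split. Ciart, which encodes a direct repressor of the CLOCK and BMAL1 pair, was not above background at ZT1 (-5.88, -5.94 and -4.47) and read -1.40, -1.12 and -1.11 at ZT13, at least 5.69-fold higher. Bhlhe40, an E-box repressor, read -0.97, 0.63 and -0.87 at ZT1 and 3.44, 3.62 and 3.62 at ZT13, a difference of 3.96 (SE 0.34). Neither passed in the slide fit (adjusted p = 0.122 for Ciart and 0.445 for Bhlhe40). Cry1 read -4.27, -3.20 and -3.71 at ZT1 and -3.88, -3.51 and -3.90 at ZT13, so that its groups overlapped (-0.04, adjusted p = 0.902), while the slide fit put it at -2.30 (adjusted p = 0.0506). Cry2 (0.31) and Bhlhe41 (-0.24) did not pass either.

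Of the BMAL1 group, Arntl read 0.67, 1.17 and 0.94 at ZT1 and -1.87, -2.48 and -2.66 at ZT13, a difference of -3.27 (SE 0.21, limma adjusted p = 2.99e-06), with -3.52 in the slide fit (adjusted p = 0.00172). Clock read 0.51, 0.65 and 0.77 at ZT1 and -0.83, -0.74 and -0.60 at ZT13, or -1.37 (SE 0.17), and was -2.0 in the slide fit (adjusted p = 0.0172). Npas2 read -0.51, -1.29 and -1.30 at ZT1 and was not above background at ZT13 (-7.11, -5.95 and -5.30), at least 10.6-fold lower. In each of these 3 genes every ZT13 liver lay below every ZT1 liver, and the adjusted p of Npas2 in the slide fit was 0.0314. The dimmer paralogue Arntl2 was at -1.02 and at -0.07 in the slide fit.

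The D-box factors rose together. Dbp read 2.72, 2.26 and 2.39 at ZT1 and 5.59, 5.97 and 5.83 at ZT13, a difference of 3.34 (SE 0.17, limma adjusted p = 7.63e-07), with 4.48 in a dimmer probe and 4.20 in the slide fit (adjusted p = 0.00026). Tef read 1.68, 1.24 and 1.34 at ZT1 and 3.79, 3.76 and 3.68 at ZT13, or 2.33 (SE 0.14), with 2.36 in the slide fit (adjusted p = 0.012). Hlf was at 0.93 (adjusted p = 0.014) and 1.81 in the slide fit (adjusted p = 0.263). Nfil3, the repressor at the same sites, read 3.77, 3.15 and 3.28 at ZT1 and 1.08, 1.67 and 0.87 at ZT13. Its difference of -2.19 (SE 0.23) went opposite to the activators, with no overlap of the groups, and was -1.40 in the slide fit (adjusted p = 0.455).

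In the nuclear receptor loop Nr1d1 did not differ beyond its spread (-0.49, 0.15 and -0.44 at ZT1, -0.23, 0.15 and -0.32 at ZT13, adjusted p = 0.625). Nr1d2 was higher by 1.5 (SE 0.22), from a probe that the array design puts on chromosome 19 although RefSeq has the gene on chromosome 14. The dimmer probe on chromosome 14 gave 4.11. Rora was at 0.36 (adjusted p = 0.273). Of the kinases that mark PER proteins for turnover, Csnk1e was at -0.50, with another probe at -0.97, but at 0.14 under median scaling, and its paralogue Csnk1d did not pass (0.45).

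**Figure D2:**
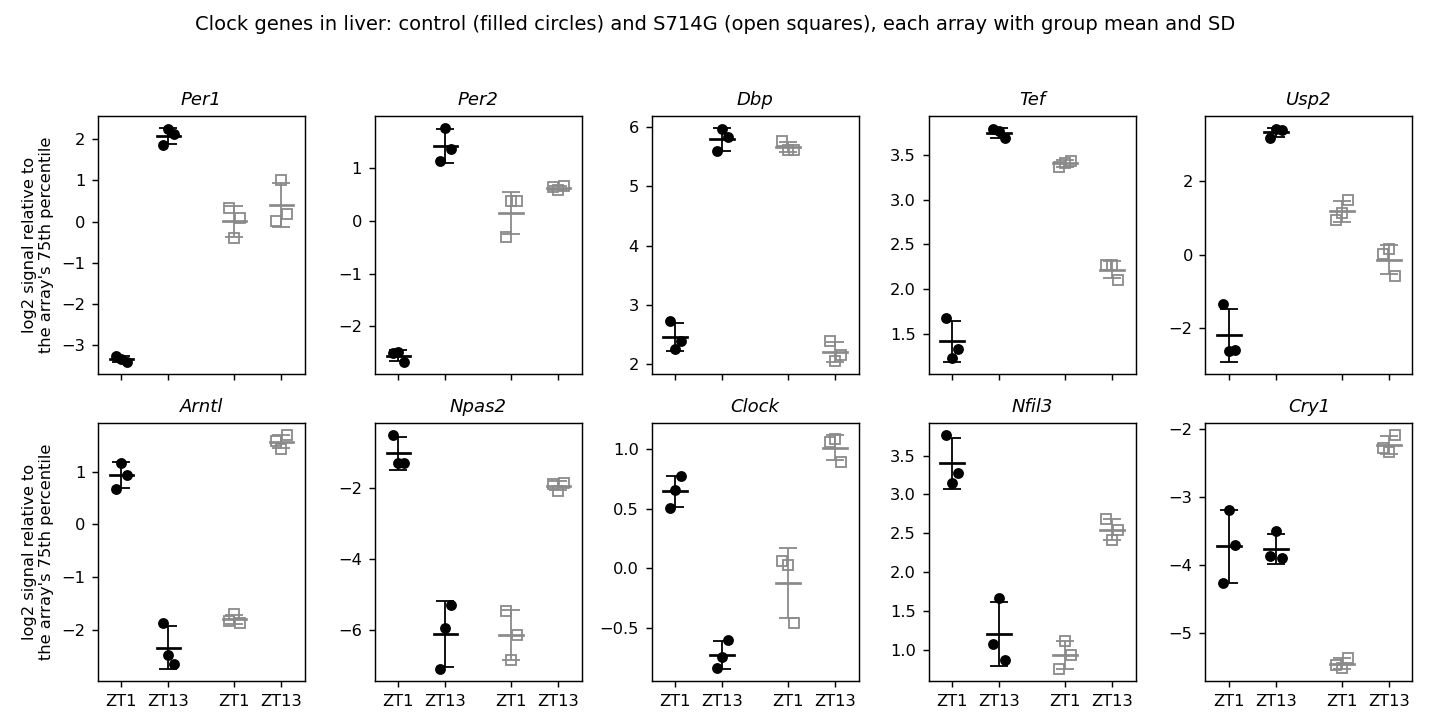
Log2 signal of clock genes on each liver array, relative to the array's 75th percentile, in control (filled circles) and S714G liver (open squares), with group mean and SD. In control liver Per1 goes from about -3.3 at ZT1 to about 2.1 at ZT13 and Arntl the other way, while Cry1 overlaps; median scaling, which adds about 0.64 to every difference, turns neither Per1 nor Arntl and lifts Cry1 (-0.04) above 0.

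A clock index per array, the mean of the 8 daytime genes minus that of the 5 late-night genes, was -1.01, -1.50 and -1.02 at ZT1 and 4.02, 3.81 and 3.88 at ZT13. The difference of 5.08 was many times the SD of either group (0.277 and 0.108, n = 3 each). The exact two-sided permutation test gave p = 0.1, the smallest that 3 against 3 allows. The slide fit put the difference at 5.52 (SE 0.495).

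Beyond the loop itself, genes known to follow the clock in liver were mostly higher at ZT13. Of 20 such output genes 11 were higher and 4 lower, with a median of 1.29 against -0.15 for all genes, and in the slide fit 5 were higher and 2 lower (median 1.21). Lpin1, a phosphatidate phosphatase of triglyceride synthesis that also acts as a coactivator, read 0.24, -0.41 and 0.21 at ZT1 and 4.49, 5.10 and 5.13 at ZT13. Its 29.6-fold difference (log2 4.89, SE 0.22, limma adjusted p = 6.45e-07) was 4.20 in the slide fit (SE 0.35, adjusted p = 2.4e-05), the lowest p of the higher genes named there. Usp2, a deubiquitinase, read -1.35, -2.62 and -2.60 at ZT1 and 3.18, 3.41 and 3.38 at ZT13, a 45.6-fold difference that was 5.70 on the log2 scale in the slide fit (adjusted p = 0.000458). In both genes the groups were separate by more than 4 units.

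Wee1, the kinase that holds cells before mitosis, read -2.0, -2.26 and -1.89 at ZT1 and 1.75, 1.16 and 1.32 at ZT13, a difference of 3.46, with 3.86 in the slide fit (adjusted p = 0.000674). Alas1, which controls the rate of haem synthesis, went from 3.03, 3.43 and 3.81 to 6.32, 6.28 and 6.46, a difference of 2.93, with 3.31 in the slide fit (adjusted p = 0.00058). Both rose with no overlap. Nampt, the rate-limiting enzyme of NAD salvage (2.36, and 1.57 in the slide fit), and Cys1 (1.54, and 2.77 in the slide fit) also passed in both. Coq10b, a coenzyme Q binding protein, was higher by 4.21 in the 12 arrays and by 1.93 in the slide fit, which did not pass (adjusted p = 0.171). Of the outputs that were lower, Ppard, a nuclear receptor of fatty acids (-1.71), and Insig2, which holds the sterol sensor in the endoplasmic reticulum (-1.50), passed in both fits, though a dimmer Insig2 probe was at -0.35. The fatty acid elongase Elovl3 (-2.65) and the cold-inducible RNA-binding protein Cirbp (-1.29) passed in the 12 arrays only.

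In fatty acid and triglyceride synthesis 11 of 22 genes were higher and 5 lower, with a median of 0.48. Fasn, the fatty acid synthase, read 0.74, 0.64 and -0.28 at ZT1 and 3.76, 1.68 and 2.86 at ZT13, a 5.29-fold difference with wide spread at ZT13. Lpin2 was higher by 2.23, though a dimmer probe was at -0.14, and the malic enzyme Me1 was higher by 0.98, with 1.97 and 0.23 in dimmer probes. Acly (0.65), Elovl6 (1.24) and Gpam (1.16) were higher, while Acacb (-1.08), Pnpla3 (-1.53) and Acss2 (-0.97) were lower. Only Lpin1 of this list passed in the slide fit, where Fasn was at 1.12 (adjusted p = 0.562), and under median scaling 17 were higher and none lower.

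In fatty acid oxidation 7 of 23 genes were higher and 1 was lower, with a median of 0.24. Slc25a20, the carnitine shuttle of the inner mitochondrial membrane, was higher by 2.30 (SE 0.15), Cpt1a, which loads fatty acids onto carnitine, by 1.24, and the dehydrogenase Acadl by 1.25. The single lower gene, Pdk4, blocks pyruvate oxidation and so favours fat use. It read 2.52, 1.46 and 2.06 at ZT1 and -1.44, -1.97 and -1.66 at ZT13, 13-fold lower with no overlap. None of these passed in the slide fit, where Slc25a20 was at 0.09, Acadl at -0.02 and Pdk4 at -2.69 (adjusted p = 0.108).

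Among glucose genes more were higher than lower. Of 19 genes of glycolysis and glycogen 8 were higher (42.1%) and 3 lower (15.8%), with a median of 0.36. Of 17 of gluconeogenesis 6 were higher (35.3%) and 1 was lower (5.88%), with a median of 0.36. Of all genes 21.3% were higher and 29.9% lower, and bright genes were called higher more often than dim ones. The medians of the 2 lists in the slide fit were 0.12 and 0.04. Whether these lists differ from other genes of like signal was not tested. Pfkfb3, which makes the activator of phosphofructokinase, read 0.14, -0.24 and -0.34 at ZT1 and 3.02, 3.06 and 3.17 at ZT13, a difference of 3.23 (SE 0.18, limma adjusted p = 1.32e-06) and of 3.64 in the slide fit (adjusted p = 0.00025). Gys2, liver glycogen synthase, went from 3.06, 3.56 and 3.52 to 5.68, 6.05 and 5.96, a 5.71-fold difference that fell to 0.29 on the log2 scale in the slide fit (adjusted p = 0.919). Both genes kept their groups apart on the arrays, and only Pfkfb3 kept its size with the slide term. The fall of Gys2 there comes mostly from the step in adipose S714G ZT1. Its ZT13 replicate 1 (5.68), which the slide fit uses, lay near replicates 2 and 3 (6.05 and 5.96). Pklr, liver pyruvate kinase, was higher by 2.00 and the glycogen targeting subunit Ppp1r3g by 2.08. Foxo1, a transcription factor of gluconeogenesis, was higher by 1.76 and by 1.63 in the slide fit (adjusted p = 0.036), the only gluconeogenic gene to pass there. The glucose transporter Slc2a2 (1.0), Pck1 (0.88) and Pdk2 (0.93) passed in the 12 arrays only.

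Sterol and bile acid genes were mixed. In cholesterol synthesis 5 of 24 genes were higher and 6 lower, with a median of -0.29 that turned to 0.35 under median scaling. The enzymes of the mevalonate path Mvk (-1.24, a dimmer probe at -0.11) and Pmvk (-0.98), were lower, and Lss was higher by 0.73. Among 16 bile acid genes 4 were higher and 4 lower (median -0.05). Cyp7a1, the rate-limiting enzyme of bile acid synthesis, read 1.90, 1.89 and 2.29 at ZT1 and 3.89, 4.25 and 4.19 at ZT13, a 4.25-fold difference with no overlap. Its slide fit value was 2.04 with an SE of 2.29. Baat, which joins bile acids to amino acids, was higher by 0.68, and Hsd3b7 (-0.89) and the export pump Abcb11 (-0.70) were lower. Of 22 genes of xenobiotic and haem metabolism 5 were higher and 2 lower (median 0.21), with Sult1d1 at 1.23, Cyp3a13 at 1.53 and the receptor Nr1i3 at 0.65 beside Alas1. No gene of the cholesterol and bile acid lists passed in the slide fit.

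Glucocorticoid and heat shock genes were mostly higher. Of 17 genes that respond to glucocorticoids 11 were higher and 3 lower, with a median of 1.41 (1.31 with 1 dim member at its bound; 13 higher and none lower under median scaling). Pik3r1, a subunit of PI3 kinase, read -2.25, -1.52 and -3.08 at ZT1 and 1.39, 0.36 and 1.35 at ZT13, a difference of 3.32 (SE 0.38). Tsc22d3, which encodes GILZ, was higher by 1.57, Fkbp5, a cochaperone of the receptor, by 1.75, Sgk1, a kinase, by 2.38 and Cebpd by 1.31. The receptor gene itself, Nr3c1, was at -0.55. Per1 stands in this list and in the clock list, and no other member passed in the slide fit, where Cebpd was at 2.11 (adjusted p = 0.107).

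Of 15 heat shock genes 8 were higher and 1 was lower, with a median of 0.77. Hspa1a, an inducible HSP70, read -0.94, -0.36 and -0.75 at ZT1 and 1.88, 1.75 and 1.81 at ZT13, a difference of 2.50 (SE 0.25) that was 2.16 in the slide fit (adjusted p = 0.0957). Bag3 (1.44), Chordc1 (1.09), Dnaja1 (1.25, a dimmer probe at 0.51), Hsph1 (1.23) and Dnajb1 (1.20), all chaperones or cochaperones, were higher with it. The small heat shock gene Hspb1 was lower (-0.91). In the unfolded protein response 5 of 18 were higher and 2 lower (median 0.40), led by Herpud1 (2.05), Hsp90b1 (1.64) and Dnajc3 (0.66). In the amino acid response 1 of 13 was higher and 3 were lower, with Ddit3 at 1.12 and Trib3 at -1.58, and the median of -0.25 turned to 0.39 under median scaling. No gene of these 3 lists passed in the slide fit.

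Among 16 immediate early genes 3 were higher and 2 lower (median 0.25). Egr1, an early growth response factor, read 1.22, 1.52 and 0.89 at ZT1 and -4.69, -3.59 and -3.82 at ZT13, 37.9-fold lower (log2 -5.24, SE 0.61, limma adjusted p = 8.77e-05), with -5.26 in the slide fit (adjusted p = 0.0439). It had the largest lower difference of the genes named by size, while Dusp1 (1.43), Jun (1.01) and Zfp36 (1.38) were higher. Ribosome biogenesis had 10 of 23 genes higher and 2 lower (median 0.40), among them Wdr43 (2.32), Gnl3 (1.54) and Polr1b (1.84, with a dimmer probe at -1.90). Ribosomal proteins (3 of 23 higher, 1 lower, median -0.03) and oxidative phosphorylation (5 of 24 higher, 1 lower, median 0.03) stand beside 51.2% of all genes called, a comparison that was not tested. Housekeeping genes had 5 of 16 higher and 2 lower (median 0.34), with Gusb at 1.40 and a dimmer Gusb probe at -0.12.

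Of 15 proliferation genes 1 was higher and 3 were lower. The higher one, Rrm2, the regulated subunit of ribonucleotide reductase, read -0.77, -1.55 and -1.28 at ZT1 and 1.93, 0.86 and 0.97 at ZT13, a difference of 2.45 that was 2.93 in the slide fit (adjusted p = 0.0216), whereas Ccnb1, a mitotic cyclin, was lower by -1.34 (log2). Among 20 acute phase genes 7 were higher and none lower (median 0.14), with Serpina3n at 1.43, Saa3 at 1.54 and Lbp at 1.41. Of 18 interferon genes 3 were higher and 8 lower, with Gbp3 at 1.61, Oasl1 at -1.39 and Isg15 at -0.93 (a dimmer Isg15 probe at 0.03). The interferon median of -0.39 turned to 0.25 under median scaling, when 6 were higher and none lower.

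**Figure D3:**
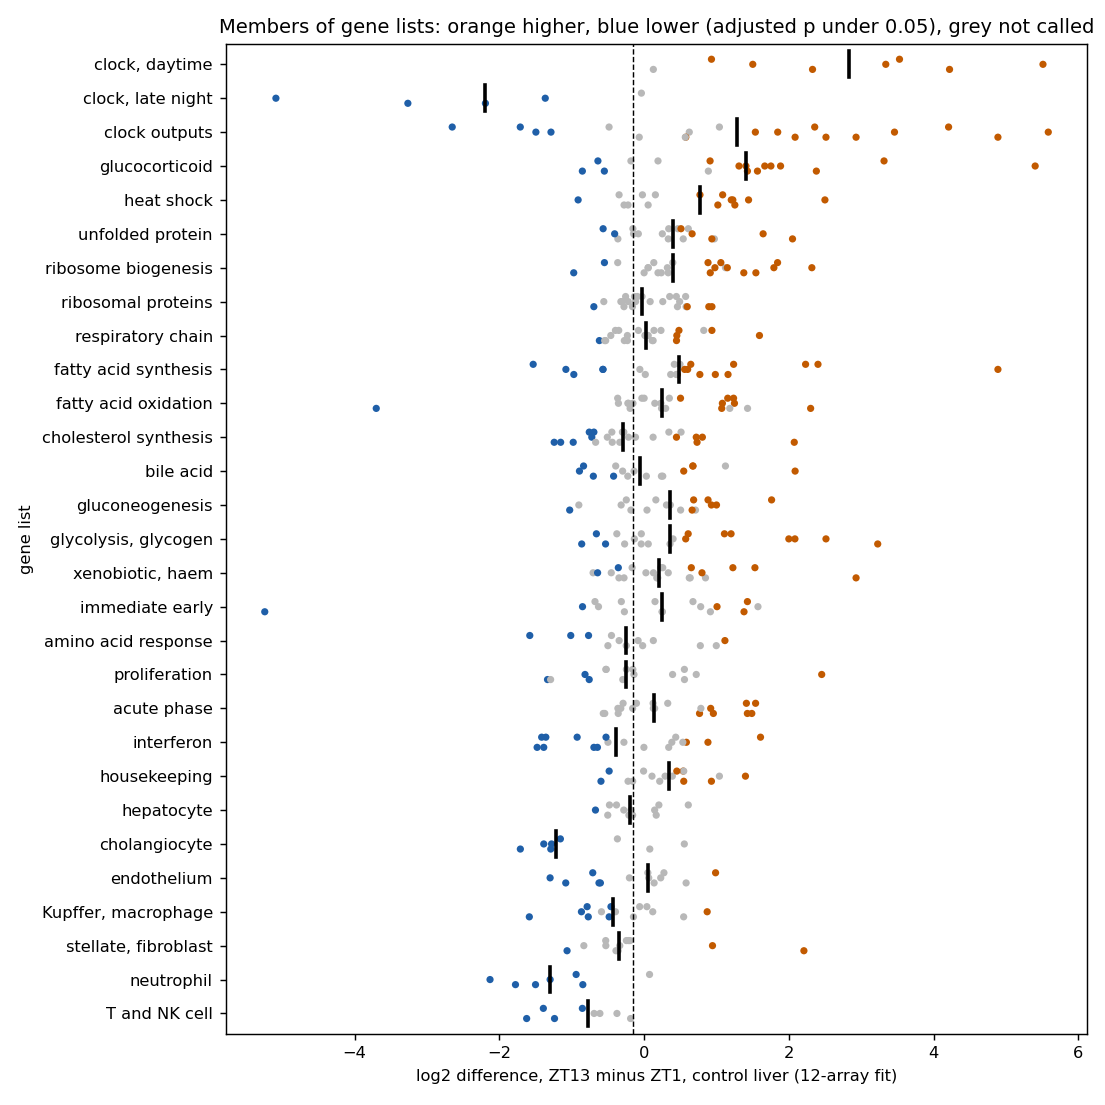
Log2 difference, ZT13 minus ZT1, of each tested member of 29 gene lists in control liver (12-array fit): orange higher, blue lower at adjusted p under 0.05, grey not called; the dashed line is the median of all genes (-0.15). Daytime clock, output, glucocorticoid and heat shock genes lie mostly to the right, and late-night clock genes to the left. Under median scaling all points shift right by about 0.64. This turns the medians of the cholesterol, amino acid response, interferon, proliferation, hepatocyte, macrophage and stellate lists among others.

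Markers of other liver cells showed a direction that moved with the scaling. Of 12 hepatocyte markers 1 was lower (Alb, -0.67) and 11 were not called. Bile duct markers had 5 of 8 lower and none higher (median -1.22), with Sox9 at -1.71 and a summed level of 3.52 to 3.92 at ZT1 against 3.45 to 3.86 at ZT13. Macrophage markers had 6 of 14 lower and 1 higher (median -0.43), with Timd4 at -1.59 and Adgre1 at -0.77 (a dimmer Adgre1 probe at -0.55). Their summed level was 8.07 to 9.10 at ZT1 against 8.66 to 9.08 at ZT13. Endothelial markers had 5 of 13 lower and 1 higher (median 0.05), with Lyve1 at -1.30 and Egfl7 at -0.71. Under median scaling endothelial markers had 7 higher and none lower, and macrophage markers 4 higher and 1 lower. Stellate cell and fibroblast markers had 2 of 12 higher and 1 lower, with a median of -0.35 (0.29 under median scaling) and a summed level of 6.89 to 7.26 against 6.47 to 7.05. Fewer cells of a type and less RNA per cell cannot be told apart in these tissue samples, and every marker tested was above background on at least 1 control array.

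Of 11 neutrophil markers 7 passed the filter on dim signal and 6 were lower (median -1.30), with Cxcr2 at -1.50 and Retnlg at -2.13, and their summed level was 2.26 to 2.50 at ZT1 against 1.86 to 2.09 at ZT13. T and NK cell markers had 4 of 8 lower (median -0.77), with Cd3e at -1.39 and Cd2 at -1.62, and summed levels of 2.41 to 2.77 against 1.62 to 2.04. B cell markers had 2 of 6 lower, Pax5 (-1.25) and Cd79a (-3.46), the latter from a probe placed on chromosome 12 although RefSeq has the gene on chromosome 7. Adipocyte markers had 4 of 7 lower and 1 higher (median -0.74), with Adrb3 at -1.04 and summed levels of 7.96 to 8.57 against 7.11 to 7.80. The higher one was Cidec, a lipid droplet protein that liver also makes, at least 3.51-fold higher (adjusted p = 0.0439 in the slide fit). Of 10 muscle markers 4 passed the filter on dim signal and all 4 of these were lower, with Tnni2 at -1.51. Of 11 pancreas markers 3 passed the filter and 2 of these were lower. A marker passes this filter on the signal of a single liver group. Dim members of these lists can thus enter only through the group where they read high. The direction of the counts may follow from the filter, which was not tested. Of 5 mesothelial markers tested 1 was lower, and none of 6 erythroid ones was called. The neutrophil, lymphocyte and muscle lists are dim and fall in the range of signal where lower calls prevail, none of their other members passed in the slide fit, and the part of either in the gene groups above was not tested. Under median scaling neutrophil markers had 1 higher and 3 lower, bile duct markers 2 and 2, adipocyte markers 2 and none, muscle markers none and 1, and pancreas markers 1 and none.

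Ranked by size among genes measured at both times, the higher genes were Mfsd2a, Usp2, Per1, Lpin1, Tsku, Coq10b, Per2, Bhlhe40, Slc25a5 and Mphosph10. Mfsd2a, a transporter of lysophospholipids, read -0.59, -1.80 and -1.13 at ZT1 and 4.17, 4.45 and 4.63 at ZT13, 48.0-fold higher, with 5.83 on the log2 scale in the slide fit (adjusted p = 0.0584). Tsku, a secreted hepatokine, went from 0.19, -1.14 and -0.47 to 4.29, 3.57 and 3.53, a difference of 4.27, and passed in the slide fit (5.04, adjusted p = 0.0127). Both had well separated groups. Dimmer probes ran alike for Lpin1 (5.23), Coq10b (4.13), Alas1 (3.17), Nrg4 (3.24), Gys2 (2.49), Pfkfb3 (2.29) and Loxl4 (-4.18). Slc25a5 rested on an uneven group (-2.53, 3.76 and -0.81 at ZT1 against 3.84, 4.15 and 3.78), was at -2.36 in the slide fit, and its probe is placed on chromosome 14 although RefSeq has the gene on chromosome X. Mphosph10 (3.72), above background on 1 of 3 ZT1 arrays, had a further probe at -0.32 and a slide fit value of 0.29.

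The lower genes by size were Egr1, Loxl4, Pdk4, Lix1, Spon2, Grk5, Brs3, Cd79a, Chrm5 and Adamts4. At ZT13 Loxl4, Lix1 and Adamts4 were well above background on 2 of 3 arrays and Egr1, Brs3, Cd79a and Chrm5 on 1 of 3, so the sizes of their differences are uncertain. Loxl4, a lysyl oxidase of the matrix, read 1.72, 0.50 and 0.78 at ZT1 and -2.97, -3.69 and -3.00 at ZT13, 18.6-fold lower, with -4.00 in the slide fit (adjusted p = 0.00142). Spon2, a secreted matrix protein, went from 1.66, 1.90 and 1.68 to -1.71, -2.15 and -1.83 (-3.64, and -3.06 in the slide fit, adjusted p = 0.00649). Grk5, a kinase of G protein coupled receptors, went from 1.09, 0.87 and 0.81 to -2.52, -3.11 and -2.42 (-3.60, and -3.46 in the slide fit, adjusted p = 0.000766). In these 3 genes the groups were at least 3 units apart. Adamts4, a matrix protease, was at -3.28 and did not pass in the slide fit (-2.47, adjusted p = 0.114), nor did Lix1 (-3.67), Brs3 (-3.47) and Chrm5 (-3.33), whose ZT1 values were widely spread.

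The genes of lowest p in the slide fit that also passed in the 12 arrays included some with no place in the clock loop. Pcsk4, a proprotein convertase, read 1.39, 1.26 and 1.29 at ZT1 and 4.63, 4.81 and 5.01 at ZT13, a difference of 3.51, with 3.83 in the slide fit (adjusted p = 0.00026). Nrg4, a growth factor of the neuregulin family, went from -0.15, -0.33 and -0.62 to 3.0, 2.90 and 3.18 (3.39, and 3.48 in the slide fit). Lrrc28 was at 2.49 and 2.26. Each of these was high in all 3 ZT13 livers. On the lower side Rnf125, a ubiquitin ligase, read 4.40, 5.16 and 4.84 at ZT1 and 2.56, 3.11 and 2.86 at ZT13 (-1.96, and -2.83 in the slide fit). Cacng7 (-1.22 and -2.75), Npl (-1.34 and -3.35) and Chn1 (-1.50 and -3.23) had larger values in the slide fit than in the 12 arrays. Their ZT13 replicate 1 (-1.62, -2.67 and -3.44) lay near their ZT13 means (-1.69, -2.57 and -3.10). Most of the added size thus comes from the adipose S714G ZT1 arrays and not from liver.

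**Figure D4:**
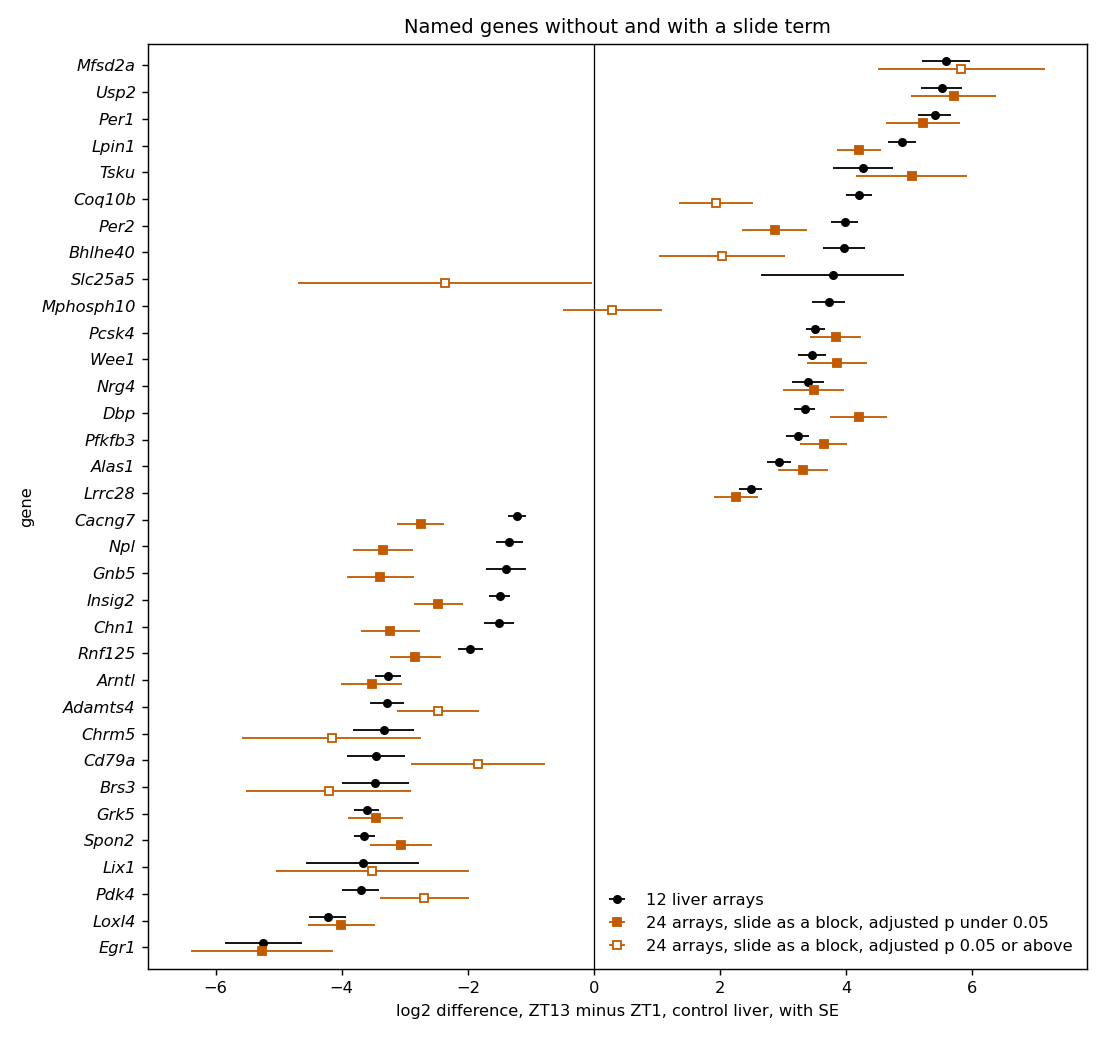
Log2 difference, ZT13 minus ZT1, with SE, of 34 named genes in control liver, from the 12 liver arrays (circles) and from the slide fit of 24 arrays (squares, filled where adjusted p is under 0.05). Of the 34, 20 were chosen because they passed in both fits, so that their like sign is fixed by the choice; Slc25a5, chosen by size, has opposite signs, and over all 125 named genes 71 lost the call and 14 turned with the slide term.

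The same difference was computed in S714G liver from separate arrays, in the order ZT13 minus ZT1, with ZT1 on slide 2 and ZT13 on slide 3. There 435 genes passed (1.99%), of which 287 had passed in control liver too, which is 66.0% of the genes of S714G and 2.56% of those of controls. Of the 287, 160 went in the same direction and 127 in the opposite one. The change differed between the genotypes for 6806 genes (31.1%) in the 12 arrays and for 252 (1.04%) in the slide fit. Across 21861 genes, which are not independent replicates, the changes of both genotypes had r = 0.085 (Spearman's rho 0.129).

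Arntl and Dbp changed in opposite directions in the 2 genotypes. Arntl went from -1.80 ± 0.084 to 1.57 ± 0.130 (SD, n = 3) in S714G liver, and its change exceeded that of controls by 6.64 (SE 0.29, limma adjusted p = 5.69e-07). Dbp went from 5.66 ± 0.089 to 2.20 ± 0.170, a change lower than that of controls by 6.80 (log2 -6.80, SE 0.23, limma adjusted p = 1.19e-07). Cry1, which did not pass in control liver, was above background on all 3 ZT13 arrays of S714G liver and on none at ZT1, and Per1 (0.40) and Per2 (0.48) did not pass there. Among outputs Lpin1 changed by -1.30, Pcsk4 by -1.97, Loxl4 by 2.82 and Ppard by 2.81. The difference of the changes passed in the slide fit for each of these genes. The clock index of S714G liver went from 3.28 to -1.42. Of the 15 heat shock genes 5 were higher at ZT13 in S714G liver and none lower, among them Hspa1a (2.72), Bag3 (1.0) and Chordc1 (0.88).

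Control white adipose tissue shares no array with control liver, but its ZT1 arrays also lay on slide 1 and its ZT13 arrays on slide 2. The sample titles number both tissues alike and do not say whether they came from the same mice. The fit treats the arrays of both tissues as independent. In the fit of 24 arrays 8253 of 24323 genes differed there between the times (33.9%). Across 21861 genes the changes of both tissues had r = 0.665 (Spearman's rho 0.693), a description that includes whatever the slides share. The change differed between tissues for 646 genes (2.66%), and for 302 (1.25%) in the slide fit. Among clock genes Arntl was at -4.66 in adipose tissue against -3.27 in liver, Per2 at 4.34 against 3.97, Dbp at 2.25 against 3.34 and Tef at 2.05 against 2.33. Per1 changed less in adipose tissue (3.01 against 5.40, difference -2.40).

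Genes whose change was larger in liver were Lpin1 (4.89 against 1.11 in adipose tissue, difference -3.77, SE 0.28, limma adjusted p = 4.41e-07), Pfkfb3 (3.23 against -0.15), Rhbdd2 (2.35 against -0.11), Slc19a1, a folate carrier (1.28 against -1.07), and Gas2l3 (1.96 against -0.88). In the other direction stood Loxl4 (-4.22 against 0.64, difference 4.86, SE 0.36, limma adjusted p = 4.41e-07), Rcor2, a corepressor (-1.83 against 1.42), Ppard (-1.71 against 0.91), Grk5 (-3.60 against -0.94) and Ndrg1 (-1.75 against 1.09). All 10 differences also passed in the slide fit. Mfsd2a, at 5.59 in liver, was at 0.08 in adipose tissue.

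**Figure D5:**
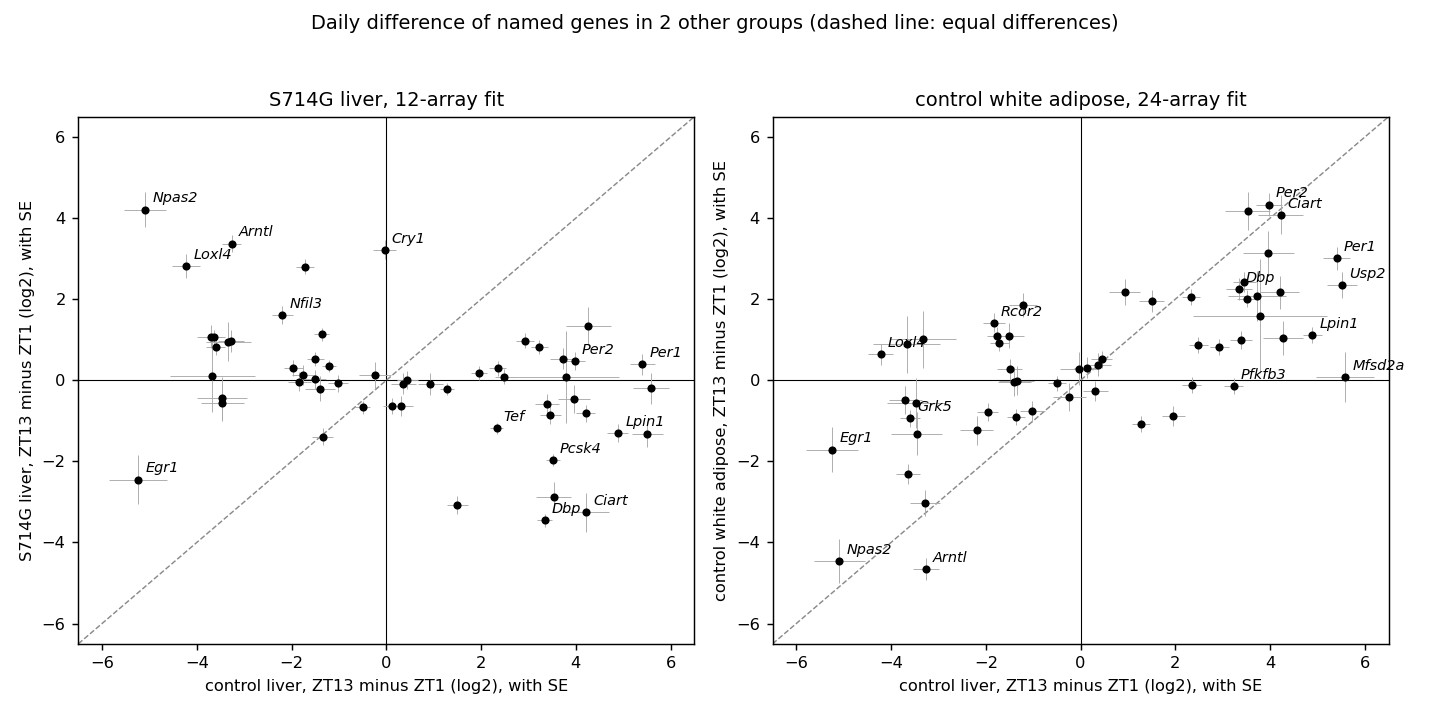
Log2 difference, ZT13 minus ZT1, with SE, of 56 named genes in control liver (x axis) against S714G liver (left panel) and control white adipose tissue (right panel); the dashed line marks equal differences. Many of the 56 were chosen for such a difference; over all 21861 genes 46.3% had the opposite sign in S714G liver and 21.1% in control adipose tissue. Npas2, Per3 and Ciart were not above background at 1 of the times, so their places are fitted values and not measured sizes.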

How the data were processed

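The deposited scanner files give an intensity per spot, per the file headers from Agilent Feature Extraction 10.7.3.1, with background and spatial trend removed and no scaling between arrays, and other columns of 0 or 1 flags per spot (well above background, saturated, outlier) that the authors' scanner software set. The deposited value table is on a log2 scale, and each column is the log2 processed signal of that array less a constant (within 0.01 for 100% of probes), with medians of -3.06 to -3.85 on the 6 arrays compared. The sources used here do not state its constant, which lay close to the log2 75th percentile of each of these 6 arrays. With the deposited values 11092 genes differed in control liver, with a median of all genes of -0.149. The main setting gave 11190 and -0.150, so the deposited values are hardly a separate processing.

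Control spots and outlier spots (0.278% to 0.567%) were left out, spots of a probe averaged (55681 probes), and log2 signals set relative to the array's 75th percentile. A probe was kept (30842 were) if some liver group had it well above background on each of its 3 arrays, no spot was saturated, and each gene took its brightest probe. Names came from RefSeq accessions (26762 probes), symbols (3819), synonyms (639) or the files (24461). Positions of probes follow the array design (mm9), and exons or UTRs were not assigned. Where a group was not above background, the fold is a bound against the higher of the dim probe's signal and the lowest signal well above background on each array.

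The tests used limma 3.58.1 (R 4.3.3; lmFit, eBayes, two-sided, Benjamini-Hochberg over all genes, threshold 0.05), with 4 group means over 12 liver arrays, or 8 over 24 arrays for tissues and for the slide term. Genes for which the slide term could not be estimated were left out of it. Tables and plots used data.table (version 1.17.8), Python 3.11.15, pandas 2.3.3 and matplotlib 3.10.9, and the fitting code was tested on simulated data.

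The comparison, the 36 gene lists (542 entries, 498 tested) and the tests were chosen with earlier results of these data known. Named genes are the core clock genes, per direction the 10 largest differences with separate values and signal at both times, per direction the 10 of lowest p in the slide fit that passed in both fits, up to 4 of lowest p per list, and per direction 5 for each difference of changes. Some genes chosen by these rules are not reported here. Other list members in the text were chosen after their values were seen.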

Additional observations from a re-analysis of the deposited data

Results flagged for a closer look

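The change from ZT1 to ZT13 differed between S714G and control liver for 93 of the 125 named genes (limma interaction, adjusted p under 0.05). Over all genes it differed for 6806 (31.1%). Most of the 125 were chosen by values of control liver arrays that enter this difference, and some for the difference itself. Their higher share is therefore no separate result. Given here, as S714G minus control on the log2 scale, are the 20 of the 93 that are core clock genes or were named for the genotype difference. The values were positive for Loxl4 (7.04), Arntl (6.64), Spon2 (4.70), Ppard (4.52), Nfil3 (3.80), Clock (2.50) and Arntl2 (0.95). They were negative for Dbp (-6.80), Lpin1 (-6.19), Pcsk4 (-5.48), Coq10b (-5.03), Per1 (-5.01), Nr1d2 (-4.57), Bhlhe40 (-4.42), Tef (-3.51) and Per2 (-3.50). The fitted values of Npas2 (9.30), Ciart (-7.48), Per3 (-6.40) and Cry1 (3.26) rest on groups not above background, so their sizes and their place among the others are not measured. The difference also passed in the fit of 24 arrays with slide as a fixed term for all of these except Arntl2, Nfil3 and Bhlhe40.

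The 3 ZT13 arrays lay above the 3 ZT1 arrays in clock index in control liver and below them in S714G liver, a difference between the changes of the group means of -9.77 that was not tested.

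Between control tissues the change differed for 36 of the 125 named genes, against 2.66% of all genes, and the same limit of choice holds. Given here, as white adipose tissue minus liver, are the 11 that are core clock genes or were named for this difference. The values were 4.86 for Loxl4, 3.25 for Rcor2, 2.84 for Ndrg1, 2.67 for Grk5 and 2.63 for Ppard. They were -3.77 for Lpin1, -3.37 for Pfkfb3, -2.84 for Gas2l3, -2.46 for Rhbdd2, -2.40 for Per1 and -2.35 for Slc19a1. All 11 passed in the slide fit too.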

How the results depend on the processing

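The count of genes that differed in control liver was 11190, and 148 with slide as a fixed term over 24 arrays or 5942 with an absolute log2 difference of at least 1 as well. With a replicate left out it ran from 9048 (without ZT13 replicate 3) to 12592 (without ZT1 replicate 2). It was 7866 when only the 6 arrays compared entered the fit and 8943 with signal required on every array. The clock index difference of 5.08 was 3.83 with normexp background, 4.62 without Per3, Ciart, Usp2 and Cry1, 5.52 with the slide term, and 4.92 to 5.16 with a replicate left out. The count for S714G against control, 6806, was 3200 over all 24 arrays and 252 with the slide term, and 4770 to 9344 with a replicate left out. The count for adipose tissue against liver, 646, was 417 with quantile normalization, 385 with no filter, 361 with signal required on every array and 302 with the slide term, and 357 to 703 with a replicate left out. It moved by over 1.5 times without control liver ZT13 replicate 3 (357), adipose control ZT1 replicate 2 (381) or adipose control ZT13 replicates 1 (361) and 2 (387). Whether these changes share a cause was not tested.

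Of 125 named genes, 102 had a value with signal required on every array and 123 in the fit of 6 arrays. Over the settings that gave a gene a value, 92 kept direction and side of the threshold in all except the slide term, and 32 in all. With the slide term 38 were unchanged in both, 71 no longer passed and 14 turned: Csnk1e (0.15), Slc25a5 (-2.36), Pfkfb1 (-0.60), Sult1d1 (-0.54), Hsd3b7 (0.018), Baat (-0.68), Acadl (-0.016), Lss (-0.56), Slc2a2 (-0.55), Hsp90b1 (-0.43), Lbp (-0.13), Cd3e (0.28), Pax5 (0.73) and Tnni2 (0.018). Values of liver-abundant genes in the slide fit move with a single adipose array, as said above. Csnk1e also turned with median scaling (0.14), Polr1b (-0.027) with the mean of all probes, and Mphosph10 (-0.32) with signal required on every array. With slide as a random term over the 12 arrays (correlation -0.137) 12924 genes passed, including all 11190, in the same direction. No slide held both times of control liver, so this term cannot take slide differences out of the comparison. Its count therefore says nothing of a slide effect.

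Residuals of same-numbered samples correlated at 0.084, 0.039 and 0.039, and those of other pairs at -0.088 to 0.049. With 3 arrays a group these values cannot settle whether replicate numbers pair the samples. With the replicate number as a block the counts were 10946, 6608 and 548.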
